A study of Bos taurus with 21 samples.

Results

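Interferon-induced antiviral genes were described gene by gene and array by array in muscle of cattle foetuses. The list held 10 genes, ISG15, MX1, MX2, IFI27, IFI6, RSAD2, USP18, XAF1, OAS1Y and IFI44, of the 12538 genes that the array names. They were chosen from their differences between breeds on these same arrays. A gene was represented by every non-control probe whose RefSeq transcript belongs to it in the cattle annotation. This gave 16 probes for 9 genes, and no probe was matched to IFI44, which was not analysed here. The foetuses were Blonde d'Aquitaine (BA), a heavily muscled French beef breed, or Charolais (CH), and each array held the RNA of 1 foetus. A myostatin (MSTN) mutation occurs in BA, but not every animal carries it, and the genotype of these foetuses is not known. At 110, 180, 210 and 260 days post-conception (dpc) the BA groups held 3, 2, 3 and 2 foetuses and those of CH held 2, 3, 3 and 3, which makes 21 arrays. All were purebred and were conceived by artificial insemination of cows in their first pregnancy. The BA foetuses were 3 males and 7 females, the CH foetuses were 5 males and 6 females, and each breed had 2 sires. The methods name the muscle as Semitendinosus, whereas the sample labels name Longissimus thoracis.

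Type I interferons are secreted proteins that cells release when they sense viral nucleic acid. They bind a receptor made of IFNAR1 and IFNAR2, whose kinases JAK1 and TYK2 pass the signal on to transcription factors. A complex of such factors that holds IRF9 switches on a common set of genes, so that the genes of this set tend to rise and fall together in many tissues. Muscle fibres, fibroblasts, vessel cells and leukocytes can all respond, and in a piece of whole muscle more responding cells and more RNA per cell cannot be told apart.

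Of the 9 genes with a probe, ISG15, MX1, IFI27, IFI6, RSAD2 and OAS1Y had a probe that passed the expression filter, 6 genes in all. RSAD2 passed in 7 of the 8 groups, and in BA at 110 dpc only through replicate 3, the other arrays there being below 0. XAF1 was above the filter level in 6 of the 8 groups, where 7 were needed, and USP18 and MX2 in none. Each gene is given below by its brightest probe among those that passed, or else its brightest probe. The scale is log2 intensity relative to the 75th percentile of the array, shifted so that 0 is the level of the median probe, and levels of different genes cannot be set against each other on it. The probes of 7 genes were well above background on every array, that of USP18 on 16 arrays and that of MX2 on 10 arrays, so the values of these last genes lie close to background. The number of probes well above background was 29027 to 34507 an array, with a median of 30546, and was highest on BA 110 dpc replicate 3. Muscle was plain in every library, with a mean of 8.11 to 9.79 on the log2 scale over 8 detected muscle markers.

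ISG15 is a ubiquitin-like protein that is joined to other proteins during antiviral defence, and of the 9 genes it showed the largest step of a single array. Its log2 level on replicates 1, 2 and 3 of BA at 110 dpc was −0.11, 1.81 and 8.09, the last of which is a 77.5-fold step above the next array. In BA it was 2.29 and 1.38 at 180 dpc, 1.05, 0.94 and 3.94 at 210 dpc and 1.28 and 1.70 at 260 dpc. In CH it was −0.04 and −0.88 at 110 dpc, 0.68, −0.47 and −0.10 at 180 dpc, 0.50, 0.02 and 0.12 at 210 dpc and 1.02, 1.80 and 1.13 at 260 dpc. Replicate 3 of BA stood far above its group at 110 dpc and at 210 dpc, whereas the CH arrays lay close together within each stage. USP18, the protease that removes ISG15 from proteins and damps the receptor, read −2.24, −1.78 and 2.55 on the BA arrays at 110 dpc and −1.61, −2.34 and 0.04 on those at 210 dpc. It read −2.42 and −2.78 in CH at 110 dpc and −1.83, −1.66 and −2.39 in CH at 260 dpc. Outside BA at 110 and 210 dpc all arrays of USP18 were at or below −1.41 on the log2 scale, and in CH at 110 dpc it was well above background on 1 of 2 arrays.

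Among the effectors that act on viruses directly, MX1 and MX2 are dynamin-like GTPases that block entry or replication of viral particles, and their genes lie next to each other in the ARS-UCD2.0 annotation. MX1 had log2 levels of 1.45, 3.29 and 7.73 in BA at 110 dpc, 3.73 and 3.22 at 180 dpc, 3.01, 2.80 and 5.401 at 210 dpc and 2.80 and 3.15 at 260 dpc. In CH it had 1.07 and 1.07 at 110 dpc, 2.43, 1.66 and 1.79 at 180 dpc, 2.99, 1.85 and 2.41 at 210 dpc and 2.53, 3.28 and 2.36 at 260 dpc. The 2 youngest CH foetuses were the lowest of all 21 for MX1. MX2 was near background, at −2.11, −3.29 and 0.26 in BA at 110 dpc and −4.04 and −0.74 in CH at 110 dpc. Its BA 110 dpc replicate 3 array was the highest and the only one above 0, and neither BA array at 260 dpc was well above background.

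OAS1Y, a copy of the 2′-5′ oligoadenylate synthetase whose product activates the RNA-cutting enzyme RNase L, was high on the same arrays. Its BA levels on the log2 scale were 1.15, 3.40 and 8.55 at 110 dpc, 4.00 and 3.32 at 180 dpc, 3.20, 2.76 and 6.41 at 210 dpc and 3.19 and 3.19 at 260 dpc. Its CH levels were 0.73 and −0.08 at 110 dpc, 2.81, 0.96 and 1.40 at 180 dpc, 2.70, 1.58 and 1.87 at 210 dpc and 2.87, 3.82 and 3.26 at 260 dpc. At 110 and 210 dpc replicate 3 was again far above the other BA foetuses, and in CH every array at 260 dpc was above every array at the earlier stages. Cattle have near-identical copies of this synthetase gene, so the OAS1Y value is uncertain as to the copy. The probes of OAS1X and OAS1Z were well above background on 4 and 2 arrays. RSAD2 (viperin), an enzyme that makes a chain-terminating nucleotide, had log2 levels of −1.38, −0.19 and 4.28 in BA at 110 dpc and 1.18, 0.74 and 2.08 in BA at 210 dpc. It had 1.49 and 0.80 in BA at 180 dpc and 0.84 and 1.37 at 260 dpc. In CH it had −1.01 and −1.08 at 110 dpc, 0.86, 0.13 and 0.16 at 180 dpc, 0.25, 0.65 and −0.32 at 210 dpc and 0.41, 0.71 and 0.84 at 260 dpc. The step of replicate 3 above the next array was 22.1-fold for RSAD2 at 110 dpc but 1.86-fold at 210 dpc.

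The remaining genes encode mitochondrial or cell death proteins. IFI27, a small membrane protein of mitochondria and the nuclear envelope, had log2 levels of 2.90, 4.62 and 9.15 in BA at 110 dpc and 3.91, 4.21 and 7.999 at 210 dpc. In CH it had 3.02 and 2.68 at 110 dpc and 3.51, 3.33 and 3.78 at 210 dpc. At 180 dpc it read 5.36 and 4.87 in BA against 3.29, 2.44 and 3.12 in CH, and at 260 dpc 4.04 and 3.85 against 3.00, 4.69 and 3.60, so that the breeds overlapped only at the first and last stages. IFI6, a related small membrane protein, read 4.15, 4.70 and 10.24 in BA at 110 dpc and 3.59, 4.10 and 7.45 at 210 dpc. In CH it read 4.201 and 4.23 at 110 dpc and 3.93, 4.16 and 4.13 at 210 dpc. At 180 dpc it read 5.32 and 5.15 in BA against 4.78, 4.24 and 4.35 in CH, and at 260 dpc 3.04 and 3.45 against 2.74, 4.03 and 3.53. For both, the replicate 3 arrays were the highest of the 21, and for IFI6 the other BA arrays at these stages lay between 3.59 and 4.70, around CH levels of 3.93 to 4.23. XAF1, which antagonises inhibitors of apoptosis, read −0.82, 0.65 and 5.66 in BA at 110 dpc, 1.96 and 1.65 at 180 dpc, 1.20, 0.46 and 2.88 at 210 dpc and 1.27 and 1.34 at 260 dpc. In CH it read −1.49 and −1.47 at 110 dpc, −0.70, −1.17 and −0.94 at 180 dpc, 0.78, −0.23 and −0.16 at 210 dpc and 0.29, 1.52 and 0.77 at 260 dpc. XAF1 was below the median probe on every CH array up to 180 dpc and above it on every CH array at 260 dpc.

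**Figure D1:**
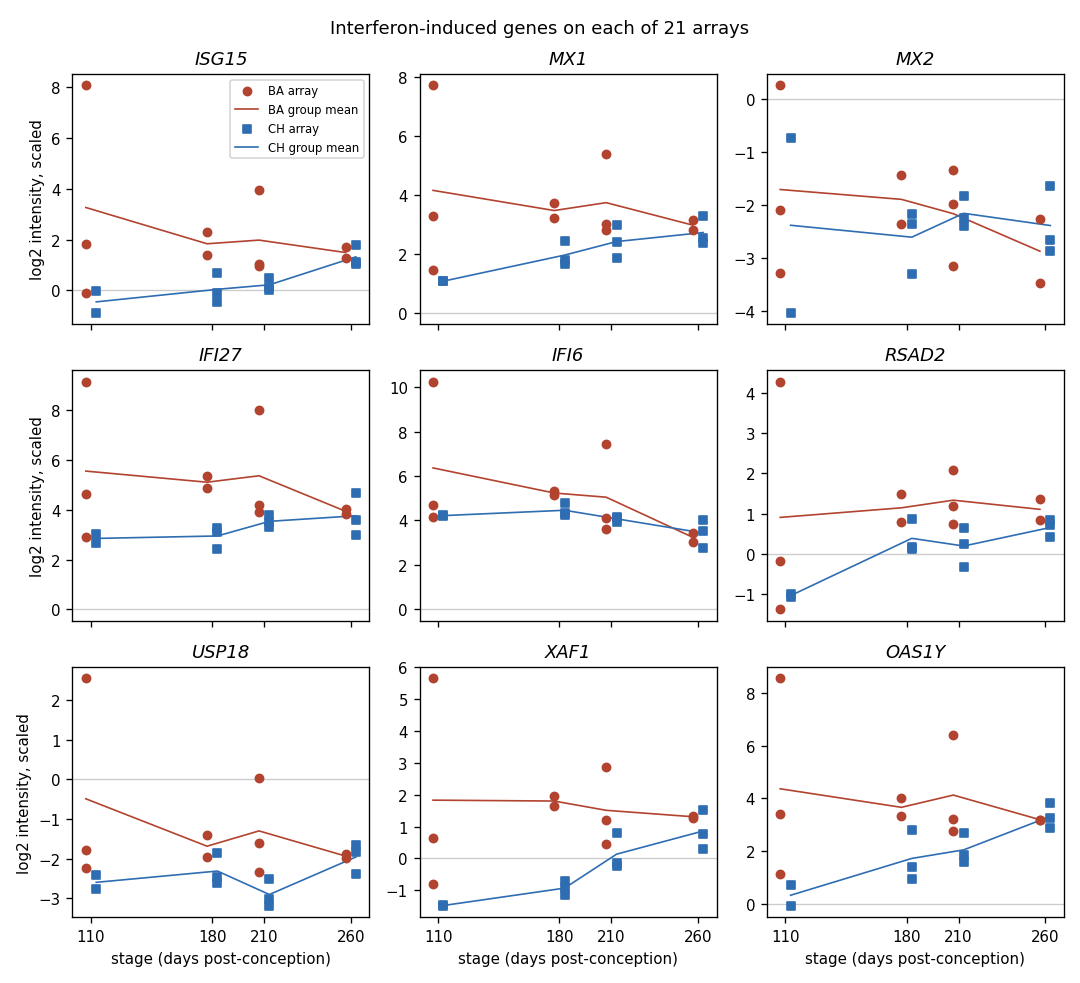
Log2 intensity relative to the 75th percentile of the array, shifted so that 0 is the median probe (y axis), of 9 interferon-induced genes against stage in days post-conception (x axis), with 1 point per array, circles for BA and squares for CH, drawn slightly apart, and lines through group means. BA replicate 3 at 110 dpc lies above every other array for all 9 genes, and the CH mean is higher at 260 than at 110 dpc for 7 of 9.

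In most groups the genes agreed on which foetus was highest. Replicate 3 was the highest of BA at 110 dpc for 9 of 9 genes, by 5.16-fold to 77.5-fold over the next array, and replicate 1 the lowest for 8 of 9. At 210 dpc replicate 3 of BA was the highest for 8 of 9, MX2 being the exception, and its step over the next array reached 13.8-fold for IFI27. In the other BA groups 1 array was the highest for 8 of 9 genes, replicate 1 at 180 dpc and replicate 2 at 260 dpc. In CH replicate 1 at 180 dpc was the highest for 7 of 9 and replicate 2 the lowest for 9 of 9, and replicate 2 at 260 dpc was the highest for 8 of 9. In CH at 210 dpc the genes agreed less, replicate 1 being the highest for 6 of 9 but the lowest for IFI6, and replicates 2 and 3 the lowest for 5 and 3. In CH at 110 dpc the genes were split, 5 being higher on replicate 1 and 4 on replicate 2. There MX1, IFI6, RSAD2 and XAF1 differed by at most 0.061 on the log2 scale, so their order is close to a tie.

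After subtraction of the group means, the median Pearson correlation between pairs of the 9 genes over 21 arrays was 0.938, with a range of 0.453 to 0.986 over 36 pairs. Over the 7 genes that were well above background on every array it was 0.957. These correlations share their libraries, and the 2 replicate 3 arrays carried much of their size. Without BA 110 dpc replicate 3 and BA 210 dpc replicate 3 the median was 0.515 over the 9 genes and 0.751 over the 7, with a lowest pair of 0.479 among the 7. On CH arrays alone the medians were 0.454 and 0.64, and all 21 pairs of the 7 genes were above 0. Without the 2 replicate 3 arrays the agreement of the 7 genes was smaller, with every pair still above 0. Of the 36 pairs among all 9 genes 30 were above 0, and each of the others involved USP18 or MX2.

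**Figure D2:**
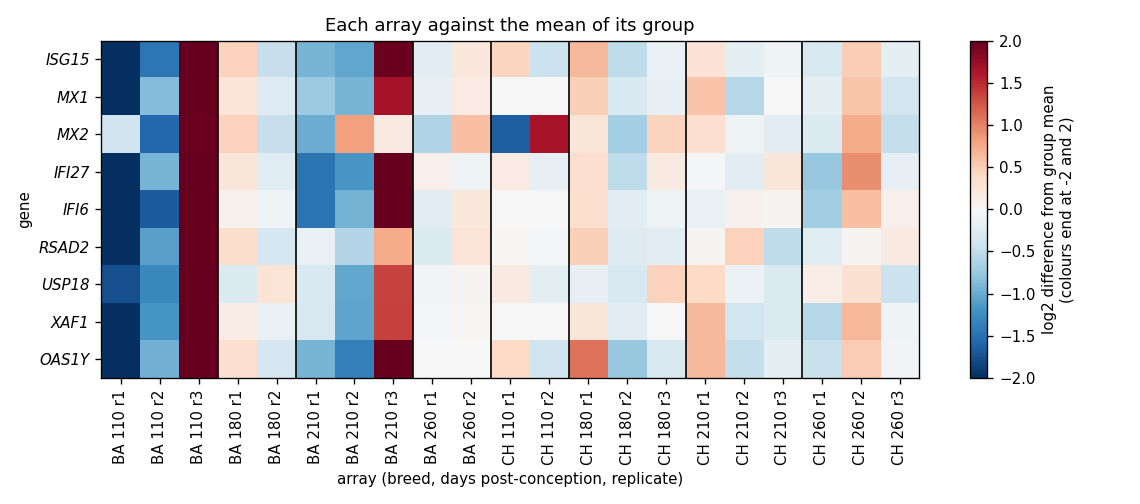
Log2 difference of each array from the mean of its group (colour, ending at −2 and 2) for 9 genes (rows) on 21 arrays (columns, by breed, days post-conception and replicate; black lines part the groups). BA 110 dpc replicate 3 is above its group mean in all 9 rows, and CH 180 dpc replicate 2 is below its group mean in all 9.

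The step of the replicate 3 arrays was set against all probes that passed the filter. On BA 110 dpc replicate 3, the log2 difference from the mean of replicates 1 and 2 had a median of −0.045 and an SD of 0.458 over 20132 probes, and 103 probes (0.512%) exceeded 2. All 9 interferon-induced genes exceeded 2 there, from 2.96 for MX2 to 7.24 for ISG15. MX2, USP18 and XAF1 did not pass the filter, so on either array they are not among the probes set beside them. On BA 210 dpc replicate 3 the median was 0.013, the SD 0.299, and 22 probes (0.109%) exceeded 2. ISG15, MX1, IFI27, IFI6, USP18, XAF1 and OAS1Y exceeded 2 on that array, RSAD2 reached 1.11 and MX2 0.26. These arrays entered the choice of the genes, so the steps are a description. The arrays lay on different slides and scan days, and the foetuses, both male, had different sires.

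Leukocyte markers were also higher on BA 110 dpc replicate 3. The mean log2 level over the 17 leukocyte markers with a probe, of which 12 were well above background on every array, was 1.58 there against 0.59 and 0.23 on replicates 1 and 2, and 0.52 to 1.61 on the arrays of the other groups. BA 180 dpc replicate 1, with a leukocyte mean of 1.61 against 0.92 on replicate 2, had ISG15 at 2.29 and MX1 at 3.73. It was higher than replicate 2 for 8 of 9 interferon-induced genes. On BA 210 dpc replicate 3 the leukocyte mean was 1.24, against 0.83 and 0.85 on the other arrays of its group. The 9 markers that passed the filter had a median difference of only 0.112 there. They ran from −0.532 for CD3D to 0.655 for NKG7, with CD4 and CD79A also below 0. The 9 leukocyte markers that passed the filter were higher on BA 110 dpc replicate 3 than on replicates 1 and 2 by 0.07, for CD3D of T cells, to 1.65, for CSF1R of myeloid cells, with a median of 0.71 on the log2 scale. Those with a probe that did not pass were higher by 0.43, for CD8A, to 3.11, for CD3E, both also of T cells. CD3E was well above background on 13 arrays. The part of these cells in the result was not tested. On BA 110 dpc replicate 3 the median difference of the 8 muscle markers was 0.006. That of the 6 markers of other tissues that passed the filter was 0.541, from −0.184 for COL1A1 to 0.704 for HBA. A higher level there was thus not particular to the leukocyte markers.

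**Figure D3:**
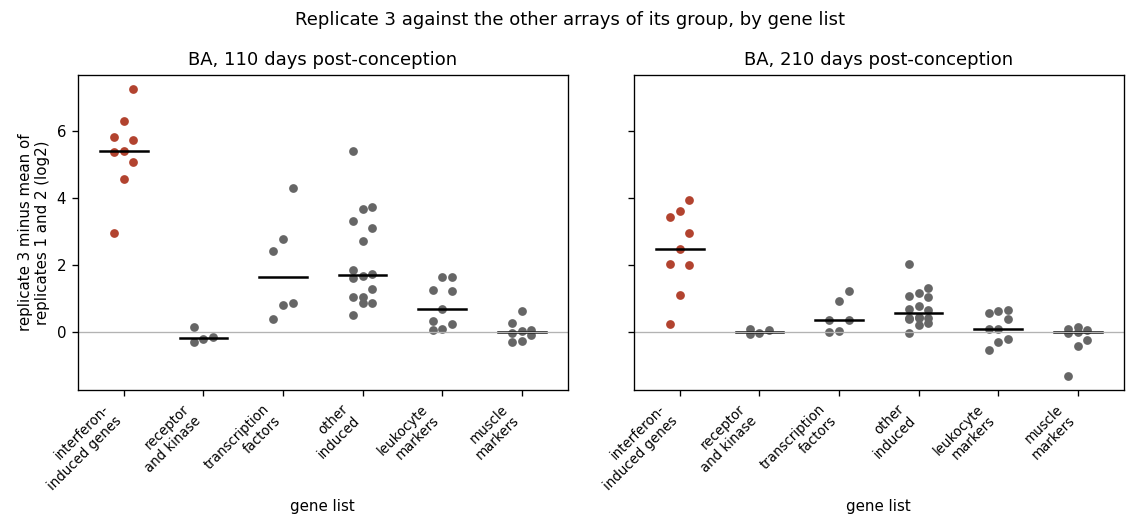
Log2 difference of replicate 3 from the mean of replicates 1 and 2 (y axis) in BA at 110 dpc (left) and 210 dpc (right), with 1 point per gene (of the grey lists, genes that passed the filter) and a black line at the median of each list (x axis). The 9 interferon-induced genes reach 7.24 at 110 dpc, and the 8 muscle markers have a median of 0.006.

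In CH the level at 260 dpc was compared with that at 110 dpc. It was higher for 7 of 9 genes, by 7.96-fold for OAS1Y, 5.07-fold for XAF1, 3.43-fold for ISG15, 3.24-fold for RSAD2 and 3.14-fold for MX1. IFI27 was 1.88-fold and USP18 1.56-fold higher, MX2 differed by −0.005 on the log2 scale, and IFI6 was 1.72-fold lower. For ISG15, MX1, RSAD2, USP18, XAF1 and OAS1Y, 6 of 9 genes, every array at 260 dpc was above both arrays at 110 dpc. Such a gap was seen for 35.7% of all probes that passed the filter, which USP18 and XAF1 did not pass. The gap of USP18, near background, was slight, from −2.42 at 110 dpc to −2.39 at 260 dpc. IFI6 lay the other way with no overlap. The CH foetuses at 110 dpc were all female and 2 of 3 at 260 dpc were male. With sex as a covariate the log2 difference was 0.13 for IFI27, 0.02 for USP18, 1.14 for ISG15 and −1.59 for IFI6. The median change of the 9 genes was 1.65 on the log2 scale, beside 0.029 over all probes tested. The CH arrays at 110 dpc entered the choice of the genes, so this difference is a description.

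In the limma fit over all 21 arrays none of these changes passed a Benjamini-Hochberg adjusted p of 0.05, and 0 of 9 had an unadjusted p under 0.05. The lowest adjusted p was 0.087 for OAS1Y, whose log2 change was 2.99 ± 1.42 (SE). In this fit 27.5% of the probes that passed the filter, and 16.2% of all probes, were called higher at 260 dpc, and 24.7% and 16.4% lower. This fit takes its error from all 8 groups, and for OAS1Y the SE was 1.42 with the 2 high BA arrays and 0.60 without them. In a fit of the CH arrays alone, added after the data were seen, 5 of 9 genes were called higher where 27.2% of probes were. Their adjusted p was 5e-04 for RSAD2, 0.00066 for OAS1Y, 0.0017 for ISG15 and XAF1, and 0.0024 for MX1. The filter was still that of all 21 arrays, which RSAD2 passed only through replicate 3 of BA at 110 dpc. IFI6 was called lower (adjusted p 0.047) where 24.7% of probes were. Without the 2 BA arrays the same 5 genes were called higher where 28.1% of probes were, and IFI6 was called lower (adjusted p 0.035) where 25.2% were. Both the genes and the rise came to notice on these arrays, and the CH arrays at 110 dpc also entered the breed differences that chose the genes, so these calls are no independent evidence.

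The steps between successive stages in CH differed in size from gene to gene. RSAD2 differed by 1.43 on the log2 scale from 110 to 180 dpc and by 0.46 from 210 to 260 dpc, whereas ISG15 differed by 0.50 and then 1.10. XAF1 was 1.07 higher from 180 to 210 dpc, and OAS1Y 1.40 from 110 to 180 dpc and 1.27 from 210 to 260 dpc. None of these steps passed in limma over all arrays, with a lowest adjusted p of 0.42, 0.81 and 0.47 for the successive intervals and 0 of 9 unadjusted p under 0.05 in each. Of all probes that passed the filter, 11.4%, 1.62% and 36.2% were called in either direction over these intervals. Within scan days, 1 array at each stage gave 7 of 9 genes higher at 260 dpc, with a median of 1.46, on day 1, and 1 against 2 arrays gave 8 of 9, with a median of 1.75, on day 2.

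**Figure D4:**
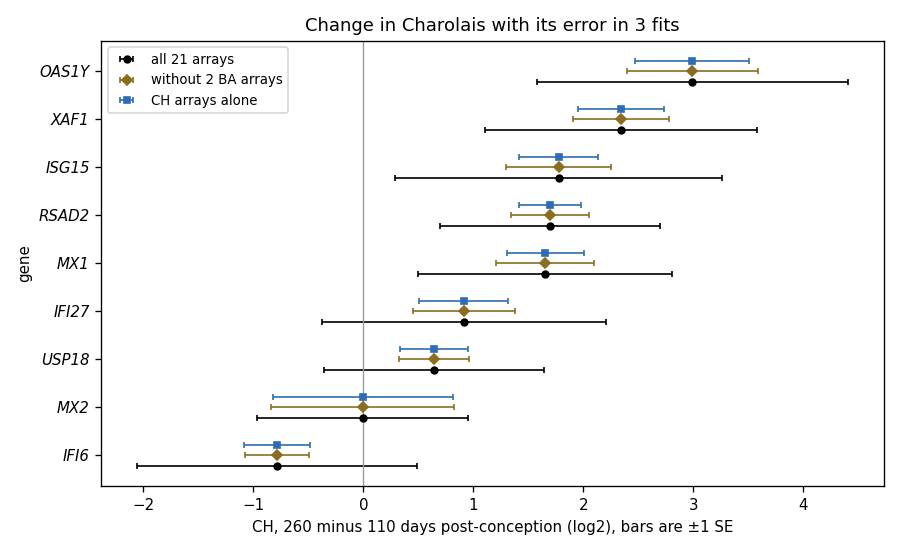
Log2 change from 110 to 260 dpc in CH (x axis) of 9 genes (y axis), with bars of ±1 SE from the fit of all 21 arrays (circles), the fit without 2 BA arrays (diamonds) and the fit of CH arrays alone (squares). The changes are equal in the 3 fits, and the bar of OAS1Y shortens from 1.42 to 0.52.

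In BA the direction of the difference between 260 and 110 dpc rested on BA 110 dpc replicate 3 for several genes. These were ISG15, MX1, IFI27, USP18, XAF1 and OAS1Y. The other replicate 3 array of BA is of neither stage, so it enters only the error of this difference. Over all arrays the difference was negative for 8 of 9 genes, with a median of −1.18 and a range of −3.12 to 0.20 on the log2 scale. IFI6 was called, 8.7-fold lower at 260 dpc (limma, adjusted p 0.049), where 52.4% of probes were called in either direction. The call of IFI6 was lost under 7 of the other settings of the fit, among them slide or replicate number as a block. Without the 2 replicate 3 arrays of BA the difference was positive for 7 of 9 genes, all but MX2 and IFI6, with a median of 0.61. The filter was still that of all arrays, which RSAD2 passed only through BA 110 dpc replicate 3. The difference was 1.89 for RSAD2 (adjusted p 0.00093), 1.39 for XAF1 (adjusted p 0.043) and −1.18 for IFI6 (adjusted p 0.0068). These were 3 of 9 genes called, where 49.8% of probes were. IFI6 was thus lower at 260 dpc in both breeds, with and without these arrays. The difference between the BA and CH changes did not pass for any gene in limma over all arrays, with adjusted p from 0.7 for OAS1Y to 1 for MX2.

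Further probes of the same transcripts correlated with the brightest at 0.796 to 0.997 over 21 arrays, and at 0.405 to 0.967 over CH arrays after subtraction of group means. For ISG15 the second probe correlated with the first at 0.997 over 21 arrays, and at 0.967 over the centred CH arrays. For MX1 the second probe gave 0.99 and 0.939, and another, well above background on 7 arrays, 0.966 and 0.633. The 3 probes of IFI27 agreed less in CH, at 0.702 and 0.769 with the brightest. The brightest IFI27 probe differed by 0.91 on the log2 scale between 110 and 260 dpc in CH and the second by 1.75, so the size of the IFI27 difference depended on the probe. The second XAF1 probe, well above background on 11 arrays, gave 0.953 and 0.691 and a CH change of 2.25 against 2.34. The second RSAD2 probe was well above background on 1 array, BA 110 dpc replicate 3 being its highest, and gave 0.796 and 0.405. These correlations again share their libraries, and those over 21 arrays rest in large part on the 2 high BA arrays.

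**Figure D5:**
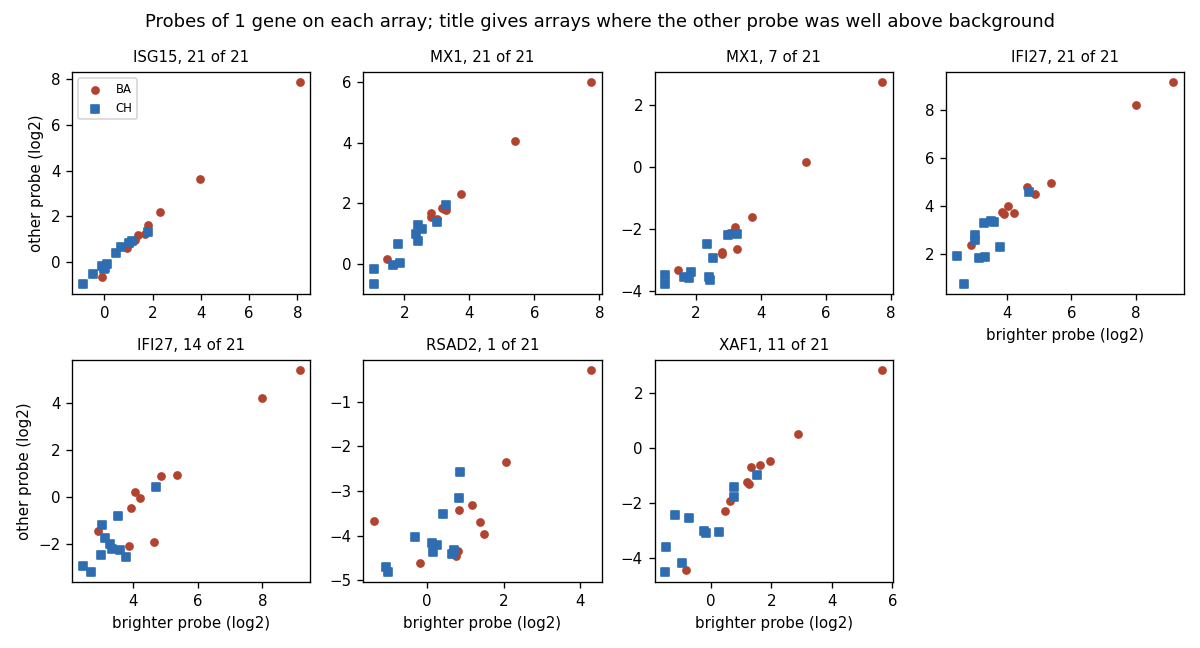
Log2 level of a further probe (y axis) against the brighter probe of the same gene (x axis), with 1 point per array, circles for BA and squares for CH, and in each title the number of arrays on which the further probe was well above background. The points of ISG15 follow 1 line (correlation 0.997), and those of RSAD2 spread at low levels (correlation 0.796).

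The differences between breeds chose these genes and are given as a description. BA was higher than CH for 9, 9, 8 and 6 of 9 genes at 110, 180, 210 and 260 dpc, with median log2 differences of 2.71, 1.52, 1.38 and 0.17. BA lay above CH on every array for 4, 6, 5 and 1 of the 9 genes, and for 11.7%, 11.9%, 5.62% and 8.9% of all probes that passed the filter. Without replicate 3 of BA the median difference fell to 0.91 at 110 dpc and 0.70 at 210 dpc, and BA remained higher for 8 and 7 of 9 genes. The 180 dpc groups hold neither of those arrays. There the log2 difference was 2.74 for XAF1, 2.16 for IFI27, 1.94 for OAS1Y, 1.80 for ISG15 and 1.52 for MX1. It was 0.78 for IFI6, and 0.76 for RSAD2, 0.72 for MX2 and 0.63 for USP18, where the breeds overlapped. The calls of the breed comparison over all probes were 0.273% at 110 dpc, 0.00993% at 180 dpc, 0% at 210 dpc, 0% at 260 dpc and 0.358% for the mean of the stages, and none of the 9 genes was among them.

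BA and CH foetuses of 1 stage shared a slide in 6 cases. On slide 3 the BA foetus was higher for 9 of 9 genes at 110 dpc, with a median log2 difference of 1.60, and for 9 of 9 at 180 dpc, with a median of 1.56. On slide 4 it was higher for 7 of 9 at 210 dpc (median 1.03) and 6 of 9 at 260 dpc (median 0.15). On slide 6 it was higher for 7 of 9 at 210 dpc (median 0.17) and on slide 2 for 8 of 9 at 260 dpc (median 0.68). XAF1 had the widest span over these pairs, from −0.32 at 210 dpc on slide 6 to 2.81 at 180 dpc on slide 3. None of the 6 pairs holds a replicate 3 array of BA.

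Sex and sire were not themselves used to choose the genes. The replicate 3 arrays of BA did enter that choice and weigh on the sex and BA sire differences, so these are a description. Males were higher than females for 9 of 9 genes, with a median log2 difference of 0.70 and a range of 0.41 to 1.21. None passed in limma with breed and stage in the model, where 0.0695% of probes did. The lowest adjusted p was 0.66 for USP18, and 0 of 9 had an unadjusted p under 0.05. Both replicate 3 arrays of BA were males, and without them the difference was positive for 2 of 9 genes, MX2 and USP18, with a median of −0.43 and a lowest adjusted p of 0.56. Between the sires of BA, compared on 110 and 210 dpc since each other stage had 1 sire, 0 of 9 genes passed (lowest adjusted p 0.72, with MX2 alone under an unadjusted 0.05), where 0% of all probes did. The BA sire difference, Oulou less Fallou, was positive for 3 of 9 genes, with a median of −0.19 on the log2 scale. Without the replicate 3 arrays it was positive for 8 of 9, with a median of 0.82, and no gene passed. Between the sires of CH 0 of 9 genes passed (lowest adjusted p 0.82, again with MX2 alone under an unadjusted 0.05), where 0.00497% of probes did. The CH sire difference, Jourdan less Indiana, was positive for 9 of 9 genes, with a median of 0.47 on the log2 scale.

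The genes outside the list whose arrays were ordered most alike were found among 7926 genes by the median correlation with the 9 genes over 21 arrays, after subtraction of group means. They were UBA7 (0.947), the enzyme that activates ISG15, RTP4 (0.945), LOC282255 (0.94), IRF7 (0.94), a transcription factor of the interferon response, and PSMB8 (0.939), a subunit of the immunoproteasome. IFITM2, IRF9, PARP14, PARP9 and EIF2AK2, the RNA-sensing kinase PKR, followed at 0.936 to 0.927. The median over all genes was −0.002, and 18 genes exceeded 0.9. Without all arrays of BA at 110 and 210 dpc the value was 0.71 for IRF7, 0.605 for RTP4 and 0.601 for UBA7, but 0.217 for IRF9 and −0.098 for EIF2AK2.

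The values of these genes show the same array. IRF7 had log2 levels of 0.75, 1.26 and 5.30 on the BA arrays at 110 dpc and 1.05 and 1.03 on the CH arrays. UBA7 had 2.23, 2.42 and 6.01 in BA and 2.25 and 1.93 in CH at that stage. PSMB8 had 0.08, 0.90 and 4.23 in BA and 0.50 and 0.62 in CH. In each case the first BA arrays lay near CH and replicate 3 above all others. At 210 dpc the step of replicate 3 above the other BA arrays was smaller for IRF7, at 2.71 against 1.90 and 1.66.

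Other steps of the pathway were read from lists of gene symbols. Of the interferon ligands, 4 of 8 had a probe and none passed the filter. IFNG and IFNK were well above background on no array, IFNW1 on 1 and IFNB3 on 5. These probes lay too close to background for differences between arrays to be read. Of the 4 receptor and kinase genes that passed, IFNAR2 was called higher in CH at 260 dpc, by 0.30 on the log2 scale (limma, adjusted p 0.038). IFNAR1, which did not pass the filter and was well above background on 9 arrays, differed by −1.04 (adjusted p 0.014 over all probes). On BA 110 dpc replicate 3 these 4, IFNAR2, IFNGR1, JAK1 and TYK2, lay between −0.28 and 0.17 of the other arrays.

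The 6 transcription factors reported here all passed the filter, and their median difference on BA 110 dpc replicate 3 was 1.66 on the log2 scale. It was 4.30 for IRF7, 2.78 for IRF9 and 2.43 for IRF1, and 0.40 for IRF3, which is present before infection. In CH between 110 and 260 dpc 0 of these 6 factors were called higher and 1 was called lower, IRF3, with a log2 change of −0.71 (limma, adjusted p 0.00019). Of the nucleic acid sensors 2 of 9 passed, TLR3 and MAVS, the mitochondrial adaptor of the RNA sensors. MAVS was called 0.51 higher in CH (adjusted p 0.00021). The counts of this and the other lists stand beside 27.5% of all probes that passed the filter called higher and 24.7% called lower in CH.

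Among 40 further interferon-induced genes, 26 had a probe and 16 passed. In CH 2 were called higher, PNPT1, a mitochondrial RNA-degrading enzyme, by 1.32 (limma, adjusted p 0.0051), and LAP3, an aminopeptidase, by 0.89 (adjusted p 0.00072). IFIT5, which binds RNA, was called lower, with a log2 change of −0.999 (adjusted p 0.0011). The median CH change of the 16 was 0.42 on the log2 scale. On BA 110 dpc replicate 3 the 16 differed by 0.51 to 5.41, the highest being RTP4, so each was higher there than the mean of the other arrays. Of the feedback regulators PIAS1 and PTPN6 passed the filter, 2 of 5, and neither was called in CH. Of the leukocyte markers that passed, 2 of 9 were called higher and 3 lower in CH between 110 and 260 dpc, and of the muscle markers 5 of 8 higher and 2 lower, beside the same shares of 27.5% and 24.7% of all probes.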

How the data were processed

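RNA of 1 foetus was hybridized to each of 21 single-colour bovine arrays. The authors made the deposited intensity values with Feature Extraction 10.7, with background and multiplicative detrending and no background subtraction. Their methods also name normalization between arrays. The deposited values show none: the 75th percentile intensity ran from 525 to 1174 over arrays, and 99.98% of the authors' deposited log2 values lay within 0.01 of the scanner values.

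Control spots and 258 spot values with an outlier mark were dropped, and a probe's spots were averaged. The log2 intensity less the 75th percentile of its array, plus 2.69, was the main scale. A probe was tested where its group mean exceeded 0 in at least 7 of 8 groups, 20132 of 43653 probes; other probes were adjusted over all. The model had a mean for each group of breed and stage (limma 3.58.1, R 4.3.3; residual degrees of freedom 13, prior 3.79), with calls at an adjusted p under 0.05. The number of arrays limits the precision. The fit was tested on simulated data.

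The members and lists were chosen with earlier results of these data known. Genes named are the 9 with a probe, the 10 most like them, and list members that passed in CH or bear on a result. An item of the factor list is not reported here. Replicate numbers did not pair foetuses: same-numbered arrays correlated at a median of 0.027. The array was designed on another assembly than ARS-UCD2.0, so no positions or sequences are printed.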

Additional observations from a re-analysis of the deposited data

How the results depend on the processing

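The number of interferon-induced genes called in CH was 0 in limma over all 21 arrays and stayed 0 under median scaling, quantile normalization, normexp background correction, the deposited value table, both other filters, sex as a covariate, a trended and robust variance, slide as a block, and any probe of the gene. It was 6, IFI6 lower among them, with CH arrays alone and without BA 110 dpc and BA 210 dpc replicate 3, both chosen after seeing the data. Leaving out 1 array at a time gave 0 to 5, with 5 without BA 110 dpc replicate 3 and 1 without BA 110 dpc replicate 1. In BA the count was 1, IFI6. It was 0 under median scaling, no filter, the filter on detection, sex, slide block and trended variance, 3 without the 2 BA arrays and 0 to 3 with each array left out, 3 being without BA 110 dpc replicate 1. With the replicate number as a block it was 0 in CH and 0 in BA, and the block changed no other count. The counts for sex and for both pairs of sires were 0 throughout.

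The median correlation of the genes within groups was 0.938, 0.776 to 0.947 with 1 array left out, and 0.515 without the 2 BA arrays. The CH change of MX2, −0.005, was 0.036 under normexp, 0.064 under median scaling, 0.005 with slide as a block and −1.655 to 1.646 with 1 array left out. Its mean breed difference, 0.225, was −0.044 without the 2 BA arrays and −0.188 to 0.637 with 1 left out. The cause was not tested. The other 8 genes kept the direction of both values in every setting, but not their size. In CH, normexp gave 1.365 for XAF1, 1.115 for RSAD2 and 0.391 for USP18, and IFI27 was 0.545 and USP18 0.306 in the value table. Sex as a covariate gave 1.14 for ISG15, 0.126 for IFI27, 0.018 for USP18 and −1.587 for IFI6, the replicate block 1.139, 0.265, 0.228 and −1.417, and the slide block 0.19 for USP18. Without CH 260 dpc replicate 1 IFI6 was −0.438, and without CH 260 dpc replicate 2 IFI27 was 0.449. Normexp gave 0.357 for the mean breed difference of USP18. MX2 and USP18 lie near background, which limits them. Where 1 array is left in a group, it is assumed to vary like the other groups.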
